A study of Danio rerio with 12 samples.

Results

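The genes examined here are 7 that were listed as oocyte-derived maternal factors of the zebrafish: buc, zar1, zar1l, gdf9, bmp15, mos and org. They were chosen by name, each matched by its symbol to an Ensembl gene in the 12 tables of read counts, and all 7 were found once among 25432 genes. The rule itself uses no measured value, although the genes were picked with earlier results of these data known. Whole embryos were compared at 6 and 1 h post fertilization (hpf), that is after and before the maternal-to-zygotic transition (MZT), in MZznf598 embryos and in wild-type embryos, with 3 libraries in each of the 4 groups. MZznf598 embryos carry a frameshift deletion early in znf598 and were born to homozygous mutant parents, so that egg and embryo alike carry only the mutant gene. Znf598 is a ligase that ubiquitinates ribosomes which have run into each other. Wild-type embryos were of the AB strain. Every library was made from RNA of pooled embryos. Nothing in the labels says whether the libraries of a group came from separate clutches, so p-values measure only the spread between these libraries, which may be technical.

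Before the zygotic genome is switched on, an embryo lives on mRNAs and proteins that were stored during oogenesis. Many of the stored mRNAs are degraded during the MZT. Buc assembles the Balbiani body, the compartment of the young oocyte that sets its animal-vegetal axis and gathers germ plasm. Zar1 and Zar1l bind stored mRNAs and hold back their translation, Gdf9 and Bmp15 are secreted ligands of the TGF-beta family that pass from the oocyte to its follicle cells, and Mos is the kinase that drives the MAP kinase cascade of meiotic maturation. The gene org (oogenesis-related gene) takes its name from its expression in the oocyte.

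Library totals ran from 7144704 to 12162660 counts. Levels are given as CPM (counts scaled to the size of the library, with TMM normalization), and as a share of all counts they do not tell less mRNA per embryo from more of other RNA, nor fewer cells of a type from less RNA per cell. The targeted gene znf598 had a log2 fold change of MZznf598 over wild type of -5.21 before the MZT, with 3.45 to 3.71 CPM in MZznf598 and 128 to 142 CPM in wild type, and of -3.31 after it, with 8.14 to 10.5 CPM in MZznf598 and 62.7 to 112 CPM in wild type. Wild-type replicate 3 stood apart from its group at both stages. The third wild-type library of 1 hpf had 5100 CPM summed over a list of egg-envelope and other oocyte genes, against 3061 and 3011 CPM in the other wild-type libraries, while the MZznf598 libraries had 3584 to 4128 CPM. Its summed CPM over 10 early zygotic regulators was 5.88, against 19.5 and 16.6 in the others and 6.29 to 7.91 in MZznf598. The third wild-type library at 6 hpf is described further on with the values it touches. Of 11 markers of ovarian follicle somatic cells, 5 never exceeded 3 counts in any library, 2 of these were at 0, and only 2 passed the filter on low counts.

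Of the 7 mRNAs, 6 were present at 1 hpf and had fallen by 6 hpf in both genotypes, and only mos was not detected. The largest estimated fall was that of zar1l, to 4.49% ± 3.34 of its 1 hpf level in MZznf598 and 4.77% ± 2.5 in wild type (SD, n = 3 libraries at 6 hpf, each over the mean at 1 hpf). The smallest was that of zar1, which kept 44.7% ± 2.33 in MZznf598 and 34.6% ± 9.17 in wild type. Replicate numbers seem to pair the stages within a genotype, although the labels do not say so, and these SDs leave that pairing out. In wild type, replicate 3 had the lowest zar1 at both stages, with 62.7 CPM at 1 hpf and 19.5 CPM at 6 hpf, which widens the SD. At 1 hpf, zar1 was also the only one called between the genotypes, with 44.8 ± 2.09 CPM in MZznf598 and 80.8 ± 16.1 CPM in wild type (SD, n = 3). The plot of levels by library shows these values.

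**Figure D1:**
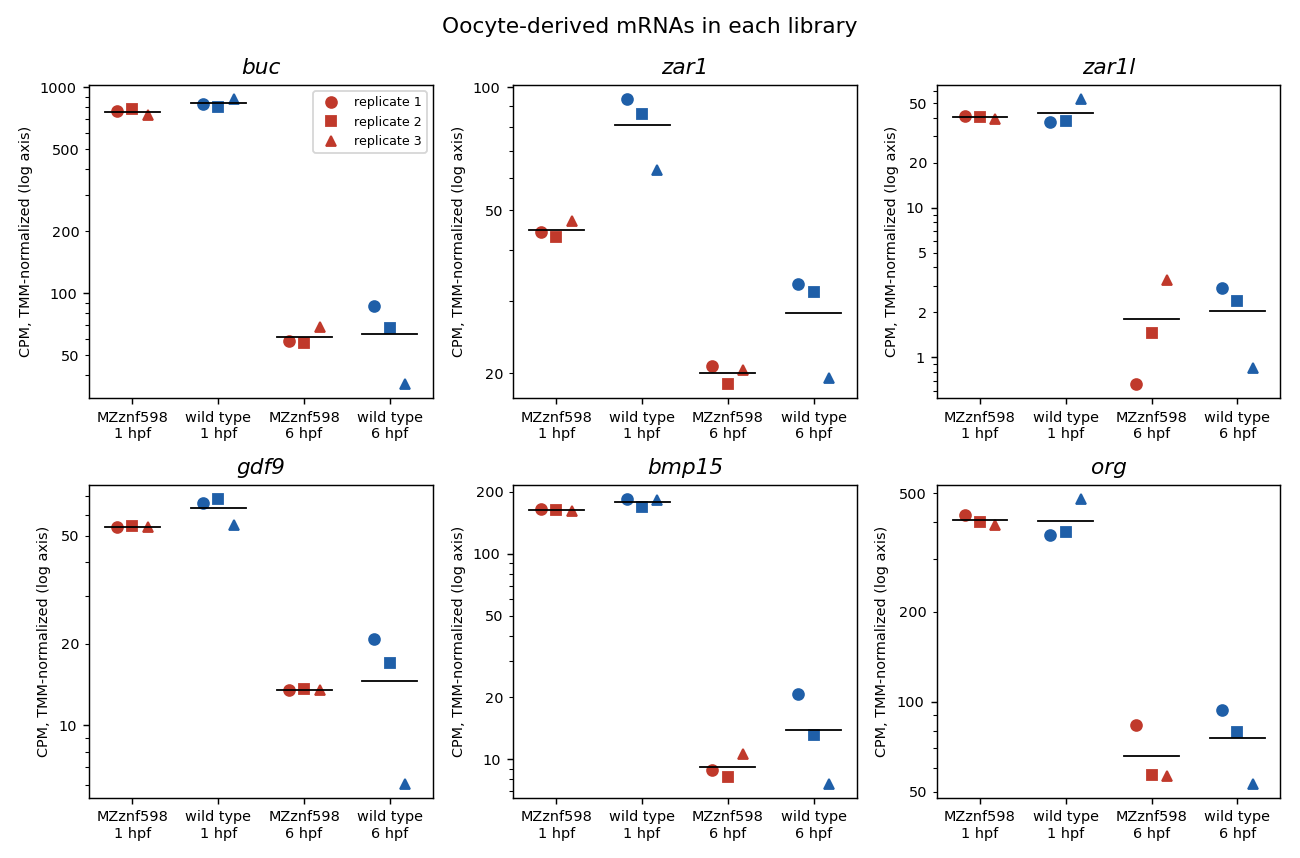
CPM of 6 oocyte-derived mRNAs in each library on a log axis, with the MZznf598 group left of wild type at each stage. Each symbol is 1 library and each line is the mean of 3. At 6 hpf every library lies below every 1 hpf library for all 6 mRNAs, and zar1 has 43.1 to 47.1 CPM in MZznf598 at 1 hpf, below the 62.7 to 93.5 CPM of wild type.

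The Balbiani body organizer buc (ENSDARG00000096095) had 58.6, 57.4 and 68.8 CPM in MZznf598 embryos at 6 hpf, against 766, 790 and 732 CPM at 1 hpf. In wild type it had 86.8, 68.0 and 36.4 CPM at 6 hpf, against 830, 804 and 877 CPM at 1 hpf. The stages were far apart in both genotypes, while the wild-type libraries at 6 hpf spread widely enough to enclose all 3 of MZznf598. From 1 to 6 hpf buc fell by 3.63 on the log2 scale in MZznf598 (SE 0.22, edgeR adjusted p = 5.13e-09) and fell by 3.71 in wild type (SE 0.22, edgeR adjusted p = 4.10e-09). At 1 hpf the MZznf598 libraries were all below those of wild type, yet the log2 fold change of -0.13 (95% interval -0.56 to 0.29) was not called (edgeR adjusted p = 0.838). At 6 hpf it was -0.06 (95% interval -0.52 to 0.40, edgeR adjusted p = 0.919).

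The mRNA-binding repressor gene zar1 (ENSDARG00000019706) had 20.8, 18.8 and 20.4 CPM in MZznf598 at 6 hpf, against 44.3, 43.1 and 47.1 CPM at 1 hpf. In wild type it had 33.0, 31.5 and 19.5 CPM at 6 hpf, against 93.5, 86.1 and 62.7 CPM at 1 hpf. At 1 hpf the groups did not overlap, and the third wild-type library, at 62.7 CPM, was the nearest to MZznf598. At 6 hpf they overlapped through the third wild-type library alone, since the other wild-type libraries were above all of MZznf598. Over the MZT it fell by 1.16 on the log2 scale in MZznf598 (SE 0.19, edgeR adjusted p = 6.89e-05) and fell by 1.52 in wild type (SE 0.18, edgeR adjusted p = 4.05e-06).

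At 1 hpf zar1 was lower in MZznf598 by a log2 fold change of -0.85 (SE 0.17, 95% interval -1.22 to -0.48, edgeR adjusted p = 0.00808). It was the 1 called of the 6 tested, where 2.23% of all genes were called lower in this comparison and 3.83% in either direction. The call lay close to the threshold of 0.01. When single libraries were left out in turn, the adjusted p of edgeR ran from 0.00103 to 0.0407, and the call held in only 3 of 12 fits. Those were the fits without wild-type replicate 3 of 1 hpf, with a log2 fold change of -1.0 (edgeR adjusted p = 0.00143), and without wild-type replicate 1 (edgeR adjusted p = 0.00790) or 3 (edgeR adjusted p = 0.00103) of 6 hpf. The call was lost without any 1 of the 6 MZznf598 libraries, without wild-type replicates 1 or 2 of 1 hpf and without wild-type replicate 2 of 6 hpf. The log2 fold change itself ran from -1.0 to -0.73 over the 12 fits. Without a 6 hpf MZznf598 library it stayed at -0.85, with an SE of 0.184 to 0.185 in place of 0.173. With DESeq2 on all 12 libraries zar1 was called at 1 hpf (DESeq2 adjusted p = 0.000139), where 576 of 15829 genes were called lower. At 6 hpf zar1 had a log2 fold change of -0.49 (SE 0.19, 95% interval -0.91 to -0.07, edgeR adjusted p = 0.149) and was not called, and the interaction, or change of the genotype difference between the stages (6 hpf minus 1 hpf), was 0.36 (edgeR adjusted p = 0.730).

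The paralog zar1l (ENSDARG00000055973) had 0.666, 1.46 and 3.28 CPM in MZznf598 at 6 hpf, from 4, 10 and 23 counts, against 41.4, 40.1 and 39.0 CPM at 1 hpf. In wild type it had 2.90, 2.39 and 0.847 CPM at 6 hpf, from 22, 18 and 5 counts, against 37.2, 38.1 and 53.2 CPM at 1 hpf. Levels at 6 hpf thus rested on few counts, and the replicates of a genotype differed more from each other than the genotypes did. From 1 to 6 hpf zar1l fell by 4.43 on the log2 scale in MZznf598 (SE 0.36, edgeR adjusted p = 7.67e-08) and fell by 4.33 in wild type (SE 0.35, edgeR adjusted p = 7.08e-08). Without the third MZznf598 replicate at 6 hpf, the one with 23 counts, the value in MZznf598 was -5.23. The genotype difference of zar1l was -0.09 at 1 hpf (95% interval -0.63 to 0.45, edgeR adjusted p = 0.938) and -0.19 at 6 hpf (95% interval -1.24 to 0.86, edgeR adjusted p = 0.874).

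Set against zar1l within a library, zar1 had 1.07, 1.07 and 1.21 counts per zar1l count in MZznf598 at 1 hpf, against 2.51, 2.26 and 1.18 in wild type. The third wild-type library lay with MZznf598 in this ratio and not with the other wild-type libraries. It had the lowest zar1 and the highest zar1l of its group. The part of whatever sets that library apart in these values was not tested.

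The ligand gene gdf9 (ENSDARG00000003229) had 13.5, 13.6 and 13.6 CPM in MZznf598 at 6 hpf, against 54.0, 54.3 and 53.9 CPM at 1 hpf. In wild type it had 20.8, 17.0 and 6.10 CPM at 6 hpf, against 66.3, 68.5 and 54.9 CPM at 1 hpf. The MZznf598 replicates were nearly equal at each stage, and wild type lay above them except in replicate 3 at 6 hpf. From 1 to 6 hpf gdf9 fell by 2.0 on the log2 scale in MZznf598 (SE 0.27, edgeR adjusted p = 1.47e-05) and fell by 2.09 in wild type (SE 0.27, edgeR adjusted p = 8.12e-06). The genotype difference was -0.23 at 1 hpf (95% interval -0.75 to 0.29, edgeR adjusted p = 0.733) and -0.14 at 6 hpf (95% interval -0.76 to 0.49, edgeR adjusted p = 0.848).

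Its partner bmp15 (ENSDARG00000037491) had 8.83, 8.18 and 10.6 CPM in MZznf598 at 6 hpf, against 164, 164 and 162 CPM at 1 hpf. In wild type it had 20.8, 13.1 and 7.62 CPM at 6 hpf, against 185, 169 and 182 CPM at 1 hpf. Before the MZT every MZznf598 library lay below every wild-type library. After the MZT the third wild-type library was the lowest of all 6. Over the MZT bmp15 fell by 4.15 on the log2 scale in MZznf598 (SE 0.24, edgeR adjusted p = 2.54e-09) and fell by 3.66 in wild type (SE 0.23, edgeR adjusted p = 5.00e-09). At 1 hpf the genotype difference was -0.13 (95% interval -0.53 to 0.28, edgeR adjusted p = 0.842). At 6 hpf it was -0.61 (SE 0.26, 95% interval -1.17 to -0.06, edgeR adjusted p = 0.179), and it ran from -0.88 to -0.20 when 1 library was left out. The interaction of bmp15 was -0.49 (edgeR adjusted p = 0.682).

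The count ratio of the ligands within a library differed between the stages. There were 1.53, 1.66 and 1.28 gdf9 counts per bmp15 count in MZznf598 at 6 hpf, against 0.328, 0.331 and 0.332 at 1 hpf. In wild type the ratio was 1.00, 1.29 and 0.800 at 6 hpf, against 0.359, 0.406 and 0.302 at 1 hpf. The stages did not overlap in either genotype.

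The oogenesis-related gene org (ENSDARG00000076474) had 83.8, 56.8 and 56.2 CPM in MZznf598 at 6 hpf, against 424, 402 and 391.6 CPM at 1 hpf. In wild type it had 93.6, 79.1 and 53.2 CPM at 6 hpf, against 363, 370 and 479 CPM at 1 hpf. The genotypes overlapped at both stages, and at 1 hpf the third wild-type library was above all others. Over the MZT org fell by 2.63 on the log2 scale in MZznf598 (SE 0.20, edgeR adjusted p = 4.38e-08) and fell by 2.42 in wild type (SE 0.20, edgeR adjusted p = 9.03e-08). The genotype difference was 0.01 at 1 hpf (95% interval -0.39 to 0.40, edgeR adjusted p = 1.00) and -0.21 at 6 hpf (95% interval -0.63 to 0.22, edgeR adjusted p = 0.610).

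The kinase gene mos (ENSDARG00000069744) had 0 counts in all 12 libraries. A count of 0 allows up to 3 counts, which is 0.197 to 0.508 CPM over these libraries and covers counting error only. Expression below that level was not detectable in a single library at this depth, and mos entered no test. Of all 25432 genes, 23001 had at least 1 count in some library. Whether the annotation or the loss of reads that were not placed once kept mos at 0 was not tested.

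The change over the MZT was then set against that of all genes tested. All 6 mRNAs were called lower at 6 hpf in both genotypes, where 33.7% of all 15829 genes tested were called lower in MZznf598 and 33.9% in wild type. Their libraries at 6 hpf all lay below those at 1 hpf, as did those of 42.3% of all genes in MZznf598 and 38.2% in wild type. Each of the 6, including zar1l with its few counts, was above the filter in enough 6 hpf libraries to be kept on those alone. Their median log2 fold change was -3.13 in MZznf598 and -3.04 in wild type, beside -0.01 and -0.02 over all genes. With size factors of DESeq2's kind in place of TMM, the median of all genes moved to 0.13 in MZznf598 and 0.12 in wild type, and each of the 6 stayed called lower. Without wild-type replicate 3 of both stages, a setting chosen after the data were seen, all 6 were still called lower in both genotypes, where 37.6% of all genes were called lower in MZznf598 and 34.2% in wild type.

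By the size of the fall the 6 were placed in a high and a low range, read from these same values. In both genotypes the intervals of zar1l, buc and bmp15 overlapped one another, as did those of neighbouring genes among org, gdf9 and zar1, and the intervals of those ranges did not meet. In MZznf598 the shallowest of the first range, buc, had a 95% interval of -4.11 to -3.15, and org one of -3.07 to -2.20. In wild type bmp15 had an interval of -4.15 to -3.18, and org one of -2.85 to -1.99. Within the low range, the intervals of org and zar1 did not meet either. That of zar1 was -1.57 to -0.76 in MZznf598 and -1.91 to -1.13 in wild type. Of all genes tested, 0.341% fell further than zar1l in MZznf598 and 0.411% in wild type, whereas 25.5% fell further than zar1 in MZznf598 and 19.0% in wild type. The remaining mRNAs were in between, with 0.581% to 12.1% of genes falling further in MZznf598 and 1.15% to 10.8% in wild type. The histogram of changes from 1 to 6 hpf shows these positions.

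**Figure D2:**
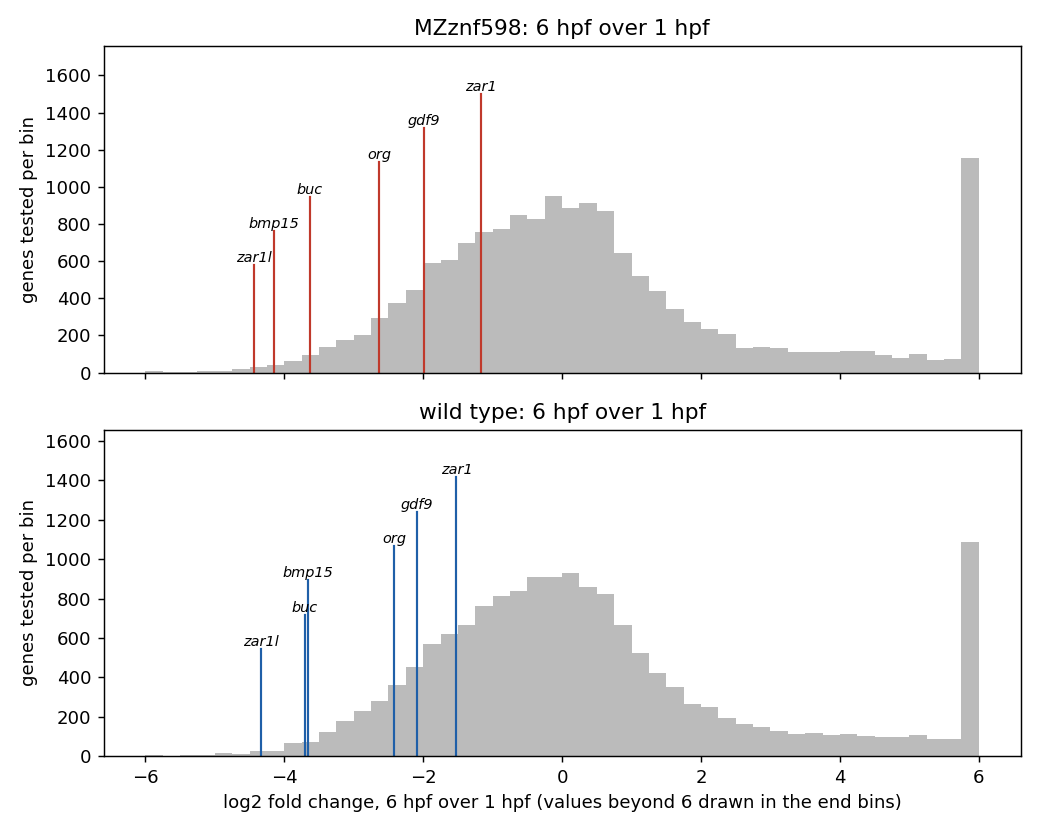
Histograms of the log2 fold change of 6 over 1 hpf for 15829 genes, in MZznf598 (top) and wild type (bottom), with lines at 6 oocyte-derived mRNAs. The height of a line has no meaning. The mRNAs zar1l, bmp15 and buc lie in the left tail, and zar1 lies at -1.16 in MZznf598 and -1.52 in wild type.

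The genotype comparison asked whether these stored mRNAs differ when mother and embryo carry only mutant znf598. The wild-type AB embryos had other parents, so the mutation cannot be told apart here from differences of line, parents or clutch. At 1 hpf, 4 of the 6 (buc, zar1, gdf9 and bmp15) were lower in MZznf598 with no overlap between the libraries, where 12.9% of all genes tested were lower with no overlap, and only zar1 was called. The median log2 fold change over the 6 was -0.13, beside 0.00 over all genes. At 6 hpf none of the 6 was called by edgeR or by DESeq2, where edgeR called 1.75% of all genes lower and 3.51% in either direction and 3514 of 15829 had an unadjusted p below 0.05. Of the 6, 2 (zar1 and bmp15) had an unadjusted p below 0.05. None of the 6 was lower with no overlap, against 13.6% of all genes. The median was -0.20, beside -0.01 over all genes. No interaction was called among the 6 by edgeR or by DESeq2, where edgeR called 0.449% of all genes, none of the 6 had an unadjusted p below 0.05, and the interaction intervals of all 6 included 0. The plot of genotype differences gives each estimate with its interval.

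**Figure D3:**
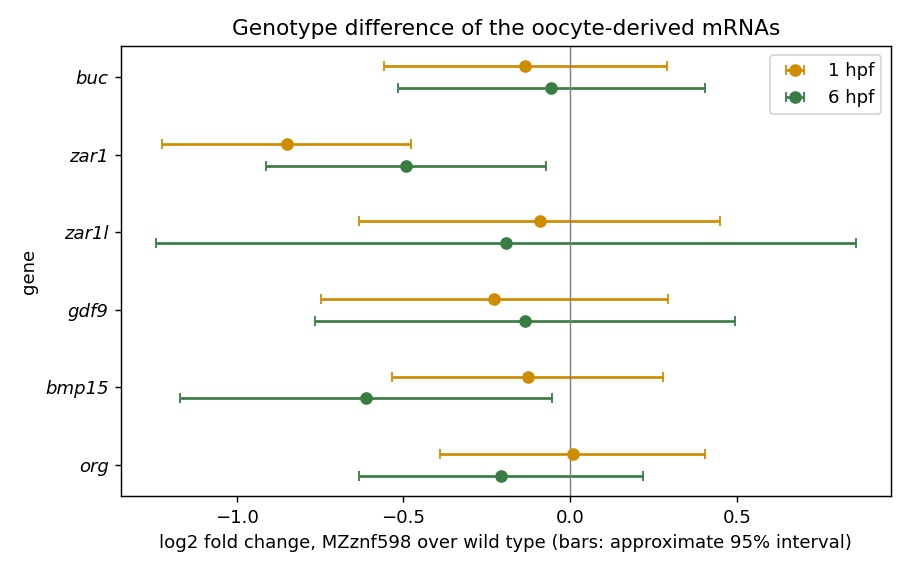
Log2 fold change of MZznf598 over wild type for 6 oocyte-derived mRNAs at 1 hpf (orange) and 6 hpf (green), with approximate 95% intervals as bars. The interval of zar1 lies below 0 at both stages and that of bmp15 at 6 hpf.

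At 6 hpf the SD of CPM was larger in wild type than in MZznf598 for 5 of the 6 mRNAs, all except zar1l. The shares of all genes with a larger SD in wild type, or highest in the first wild-type library, were not counted. The third wild-type library at 6 hpf was the lowest of its group for 6 of 6 mRNAs, and the first was the highest for 6 of 6. In log2(CPM + 1), the third deviated from the mean of the other wild-type libraries by -0.68 for org to -1.48 for gdf9. Over 4551 genes of the maternal class, meaning genes whose log2 fold change of 6 over 1 hpf was below -1 in MZznf598, the third wild-type library was the lowest of its group for 60.6%, compared with 43.0% of all genes. Its median deviation over that class was -0.25, and that of the first was 0.21. It was also the shallowest library of the series, with 7144704 counts. The heat map of deviations shows the pattern.

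**Figure D4:**
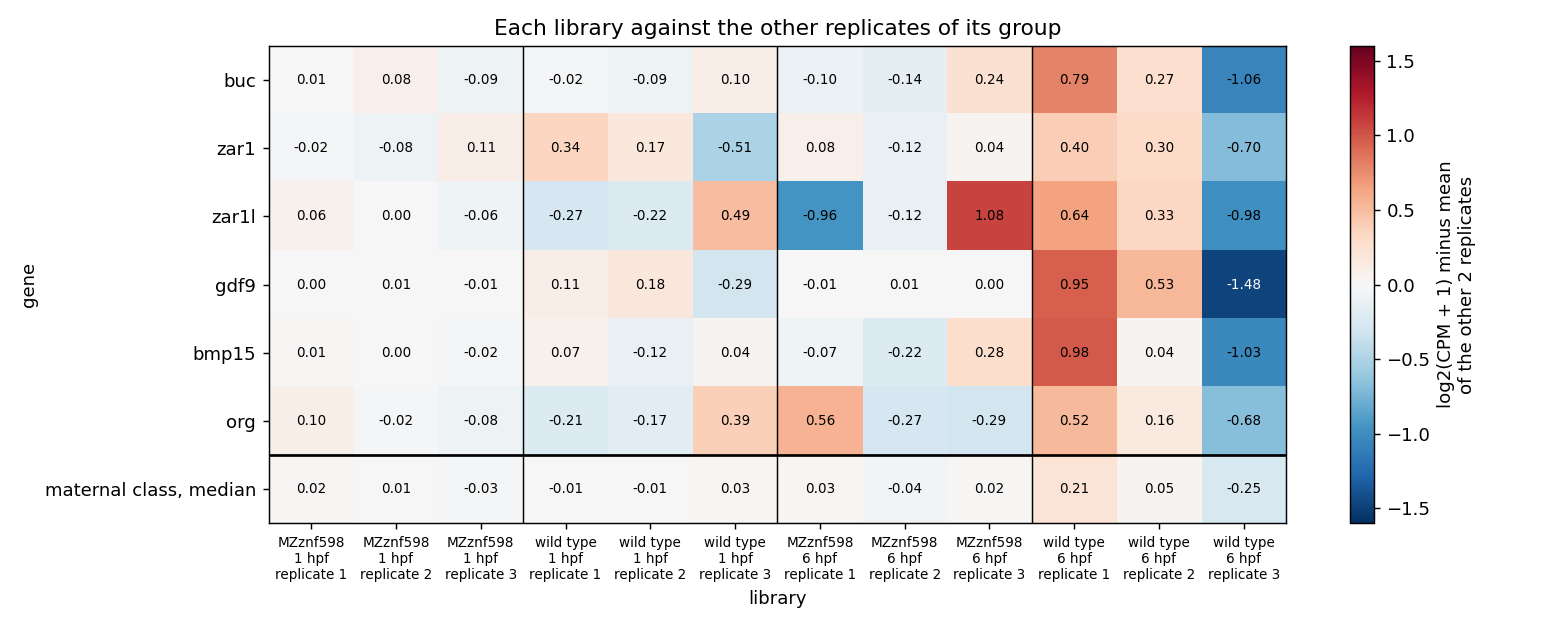
Deviation of each library from the mean of the other 2 replicates of its group, in log2(CPM + 1), for 6 mRNAs and for the median of the maternal class defined in the other genotype. Red is above and blue below the other replicates. The column of wild type 6 hpf replicate 3 is blue for all 6 mRNAs, down to -1.48 for gdf9.

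The 6 hpf genotype difference of bmp15 moved in opposite directions with these libraries. It was -0.20 without the first wild-type library (SE 0.19, edgeR adjusted p = 0.609). Without the third it was -0.88 (SE 0.18, edgeR adjusted p = 0.00614) and was called, where 3.07% of all genes were called lower. Leaving out wild-type replicate 3 of both stages, a setting chosen after the data were seen, gave 3 called lower at 6 hpf. These were zar1 at -0.69 (edgeR adjusted p = 0.000222), gdf9 at -0.48 (edgeR adjusted p = 0.00835) and bmp15 at -0.88 (edgeR adjusted p = 0.00358). In that setting 5.83% of all genes were called lower at 6 hpf, and the wild-type groups were left with 2 libraries each. Wild-type replicate 3 was the lowest of its group for all 6 mRNAs at 6 hpf and for zar1 and gdf9 at 1 hpf. Leaving it out therefore lowers these differences by itself, so the added calls are no separate result. At 1 hpf the same setting gave -1.0 for zar1 (edgeR adjusted p = 5.61e-07), again the 1 member called, where 5.74% of all genes were called lower. What sets these libraries apart, and its part in the genotype differences, was not tested.

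Genes that work beside the 6 were read from lists. Of 15 tested genes of the Balbiani body and germ plasm, the structures that Buc organizes, 12 were called lower at 6 hpf in each genotype and 1 higher, with a median log2 fold change of -2.25 in MZznf598 and -2.39 in wild type. Over all genes, 33.7% were called lower and 36.3% higher in MZznf598, and 33.9% lower and 36.5% higher in wild type. The same shares stand beside the counts of the lists below. The RNA-binding partner of Buc rbpms2 (ENSDARG00000045930) had 14 ± 0.922 CPM in MZznf598 at 6 hpf, against 82.5 ± 4.74 at 1 hpf, and 15.4 ± 1.10 CPM in wild type at 6 hpf, against 90.7 ± 4.70 at 1 hpf (SD, n = 3). The germ granule protein gene tdrd6 had 55.5 ± 2.66 CPM in MZznf598 at 6 hpf, against 381 ± 4.17 at 1 hpf (SD, n = 3). The single gene called higher was celf1, an RNA-binding protein gene, by 0.45 on the log2 scale in MZznf598 (edgeR adjusted p = 0.00162) and by 0.37 in wild type (edgeR adjusted p = 0.00562), and the wild-type call was kept in 5 of 12 fits that left out 1 library. Without wild-type replicate 3 of 6 hpf its wild-type value was 0.18 (edgeR adjusted p = 0.0143), and with the replicate number as a block within the genotype it was 0.36 and was no longer called. In that block 3 genes of the list were called higher in MZznf598. The germ cell helicase gene ddx4 (vasa) had a larger estimate in wild type but was not called, with log2 fold changes of 0.43 in MZznf598 (edgeR adjusted p = 0.0135) and 0.44 in wild type (edgeR adjusted p = 0.0111). None of the 15 was called between the genotypes.

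Of 16 tested genes of mRNA storage and translational control, where Zar1 and Zar1l act, 11 were called lower and 4 higher at 6 hpf in MZznf598. In wild type 10 were lower and 4 higher. The poly(A) ribonuclease gene parn had 170 ± 12.8 CPM in MZznf598 at 6 hpf, against 621 ± 14.8 at 1 hpf, and ybx1, encoding a Y-box protein of stored mRNAs, had 1927 ± 116 CPM at 6 hpf, against 263 ± 10.9 at 1 hpf (SD, n = 3). The decay-body gene lsm14aa had 250.0, 260.1 and 263 CPM in MZznf598 at 6 hpf, against 191, 187 and 183 CPM in wild type, a log2 fold change of 0.46 (edgeR adjusted p = 0.000665). The translational regulator gene cpeb1 had 76.3, 63.5 and 60.2 CPM in MZznf598 at 6 hpf, against 41.9, 33.5 and 40.8 CPM in wild type, a log2 fold change of 0.78 (edgeR adjusted p = 0.00748). Both were higher in every MZznf598 library at 6 hpf, as were 14.4% of all genes tested, and on the opposite side from zar1. At 1 hpf both were also higher with no overlap but not called. Their log2 fold changes there were 0.29 for lsm14aa (edgeR adjusted p = 0.0109) and 0.66 for cpeb1 (edgeR adjusted p = 0.0118). The interaction was not called for lsm14aa (0.17, edgeR adjusted p = 0.555) or cpeb1 (0.13, edgeR adjusted p = 0.935). The 6 hpf call of lsm14aa held in all 12 fits that left out 1 library and that of cpeb1 in 4 of 12.

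Of 22 tested receptor, Smad and protease genes on the path of Gdf9 and Bmp15, 5 were called lower and 11 higher at 6 hpf in MZznf598, and 4 lower and 12 higher in wild type. The shares over all genes were 33.7% lower and 36.3% higher in MZznf598, and 33.9% and 36.5% in wild type. The type II receptor gene acvr2a fell by 1.04 on the log2 scale in MZznf598 and by 1.07 in wild type, and the type I receptor gene acvr1b (ENSDARG00000018968) rose by 1.19 in MZznf598 and by 1.07 in wild type. One smad3 gene (ENSDARG00000036096), a receptor-activated Smad, had 9.06, 10.1 and 9.40 CPM in MZznf598 at 1 hpf, against 1.91, 1.76 and 1.23 CPM in wild type. This log2 fold change of 2.53 was called (edgeR adjusted p = 4.75e-05) and held in all 12 fits that left out 1 library. At 6 hpf it was 1.57 at an edgeR adjusted p of 0.00998, and the call held in 2 of 12. A second gene with that symbol (ENSDARG00000010207) had 17.1 to 17.8 CPM in MZznf598 at 1 hpf, against 4.90 to 19.7 CPM in wild type, and overlapped.

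Of 22 tested genes of the MAP kinase cascade below Mos and of maturation-promoting factor, 11 were called lower and 5 higher at 6 hpf in MZznf598. In wild type 9 were lower and 6 higher. Beside these stand 33.7% lower and 36.3% higher over all genes in MZznf598, and 33.9% and 36.5% in wild type. The kinase gene rps6ka1 (p90Rsk), a target of the MAP kinase cascade, fell by 2.82 on the log2 scale in MZznf598 and by 2.7 in wild type. Also lower at 6 hpf was fbxo43 (Emi2), the brake on the anaphase-promoting complex in the egg, with 70.1 ± 6.49 CPM in MZznf598, against 308 ± 6.14 at 1 hpf (SD, n = 3). The inhibitor of Cdk1 wee1 was higher at 6 hpf, with 127 ± 13.7 CPM in MZznf598, against 10.7 ± 1.36 at 1 hpf (SD, n = 3). None of these 22 was called between the genotypes.

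Of 29 tested egg-envelope and other oocyte genes, 22 were called lower at 6 hpf in MZznf598 and 19 in wild type, with none higher, and medians of -1.68 in MZznf598 and -1.66 in wild type. Copies of zona pellucida genes can share reads, so their counts are uncertain. The maternal chromatin gene npm2a, a nucleoplasmin, had 18.1, 17.0 and 17.2 CPM in MZznf598 at 1 hpf, against 42.0, 41.4 and 39.5 CPM in wild type. It was called lower (log2 fold change -1.23, edgeR adjusted p = 0.00123), like zar1, and the call held in all 12 fits that left out 1 library. It was 1 of 29 on this list, where 2.23% of all genes were called lower. None of the 29 was called higher at 1 hpf in the fit of all 12 libraries, but 7 were without wild-type replicate 3 of 1 hpf and 11 without wild-type replicate 3 of both stages. In those fits 416 and 1010 of all 15829 genes tested were called higher. That replicate had the highest sum of this list in its group at 1 hpf, 5100 CPM, so leaving it out favours higher calls here. At 6 hpf npm2a had 7.5, 9.49 and 9.71 CPM in MZznf598, against 9.23, 10.1 and 4.57 CPM in wild type, and the groups overlapped. The interaction of npm2a was 1.38 (edgeR adjusted p = 0.0399) and was not called. Over the 7 lists, the genes called between the genotypes in the fit of all 12 libraries were smad3, lsm14aa, cpeb1 and npm2a, where 1.6% of all genes were called higher at 1 hpf and 1.76% at 6 hpf.

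**Figure D5:**
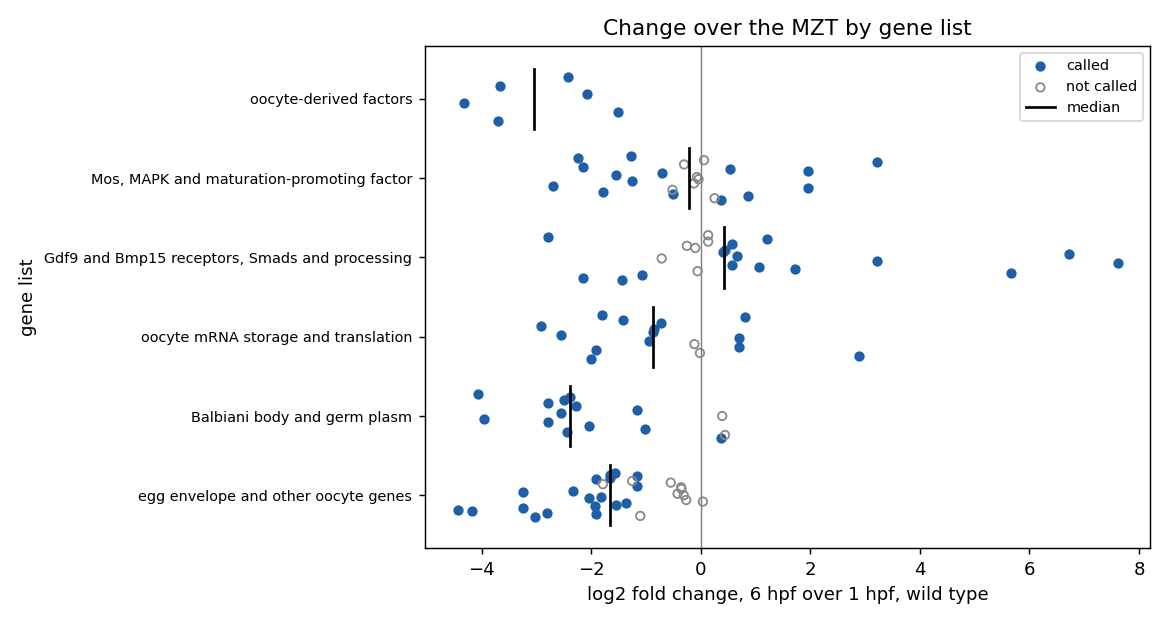
Log2 fold change of 6 over 1 hpf in wild type for each tested gene of 6 oocyte-derived factors and of 5 gene lists, 1 point per gene, filled where called, with a line at the median of each list. The oocyte-derived factors lie between -4.33 and -1.52, and the median of the Balbiani body list is -2.39.

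The follicle somatic markers and the early zygotic regulators served as a check on the samples. The steroid enzyme gene cyp11a1 (ENSDARG00000002347) held nearly all of the follicle list's counts. It had 340 to 372 CPM in MZznf598 and 312 to 333 CPM in wild type at 1 hpf. The untested markers of the list had at most 7 counts in any library. The sum of the list therefore follows cyp11a1 and not the list as a whole. At 1 hpf the sum was 342 to 374 CPM in MZznf598 and 314 to 336 CPM in wild type. At 6 hpf that sum was 187 to 191 CPM in MZznf598, and in wild type it was 183 and 198 CPM, with 102 CPM in the third replicate. The early zygotic genes, such as sox32 and chrd, rose in 10 of 10 in both genotypes. Their sum at 6 hpf was 2776 to 2785 CPM in MZznf598 and 2410 to 2755 CPM in wild type, lowest in the third replicate.

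Likeness of pattern was measured as the distance between log2(CPM + 1) values centred on each gene's mean, over 12 libraries and against 15346 other genes. It is a description, and the stage and genotype differences both enter it. Nearest to buc were mid1ip1l, zgc:56231 and apex2, at distances of 0.460 to 0.530. Nearest to bmp15 were them4, mindy3 and buc itself, at 0.655 to 0.695, so that 2 genes lay closer to bmp15 than buc did. Nearest to org were tlcd3b, ccdc102a and a second rbpms2 gene (ENSDARG00000079578), at 0.375 to 0.516. Nearest to gdf9 were tdrd1, cdip1 and gins2, at 0.491 to 0.556, and nearest to zar1l were hsd3b7, dok1b and st3gal1, at 0.838 to 0.990.

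Nearest to zar1 were med1l, nr4a3 and si:dkeyp-6a3.1, at 0.636 to 0.687. Of these, nr4a3 and si:dkeyp-6a3.1 had at most 0.663 CPM in any 6 hpf library, and log2(CPM + 1) compresses changes at such levels. Their log2 fold changes of 6 over 1 hpf in wild type were -2.22 for nr4a3 and -3.17 for si:dkeyp-6a3.1, against -1.52 for zar1. Their nearness to zar1 is therefore no sign of a fall of the same size. For med1l the value was -1.33. The closest paralog by name, zar1l, was far from zar1, with 12101 genes nearer to zar1.

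In RefSeq's GRCz12tu annotation, which is not the build of the counts and was used only for neighbours, gdf9 overlaps atp7a and zar1l overlaps kl and an unnamed gene. The libraries were made with a stranded kit, but the strand setting of the counting is not given in the sources used here, and whether the counts separate such overlaps was not tested. Beside gdf9, atp7a had 70.8 to 80.9 CPM in MZznf598 at 6 hpf, against 184 to 194 CPM at 1 hpf, and fell by 1.28 on the log2 scale. Wild-type replicate 3 of 6 hpf had the highest atp7a of its group, 84.2 CPM, and the lowest gdf9. Beside zar1l, kl had 0.285 to 5.59 CPM over all libraries.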

How the data were processed

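RNA of whole-embryo pools was sequenced in 12 libraries, whose groups come from the labels. The values deposited are whole read counts per gene. Ribosomal RNA was removed, libraries were made with a stranded kit, and single-end reads were sequenced and trimmed. The authors used STAR for alignment to the GRCz11 genome, kept reads placed once with at most 1 mismatch, and made the counts for Ensembl genes with featureCounts. The annotation release and strand setting are not given in the sources used here. Reads shared by near-identical copies are lost under this rule.

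A gene was kept when its CPM was above 1 in 3 or more libraries (15829 of all genes). The quasi-likelihood test of edgeR 4.0.16 (R 4.3.3, TMM scaling, robust option) was run on 1 fit of 4 group means with 8 residual degrees of freedom. Tests were 2-sided, the Benjamini-Hochberg adjustment ran over all genes tested, and "called" means an adjusted p below 0.01. The standard error (SE) is the absolute log2 fold change over the square root of F, and the approximate 95% interval follows from it. The code was tested on simulated data. Library totals ran from 7144704 to 12162660 counts, so 3 counts, the limit that a count of 0 allows, are 0.247 to 0.420 CPM before TMM scaling.

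Members and gene lists were chosen with earlier results of these data known. Named genes are the members, znf598, list genes called between genotypes (at most 4 a list), the 2 that fell and the 2 that rose with the lowest adjusted p in wild type, and the 3 nearest genes by likeness. Some of these are given by counts only. The receptor genes bmpr2 and bmpr1ba were added for the size of their change. Overlapping neighbours and count ratios were looked up after the data were seen. Replicate numbers were checked for pairing by correlating deviations from the group means across genes. Libraries of 1 genotype with the same number correlated across stages (r from 0.170 to 0.237 in 6 pairs, against -0.184 to 0.064 for other numbers). The numbers were therefore read as pairing stages within a genotype, which the labels do not state. Between genotypes r was -0.151 to 0.101 for the same number, which gave no sign that the numbers pair genotypes. Alternatives were RLE size factors, DESeq2 1.42.0, no filter, a filter on 6 libraries, an adjusted p below 0.05, only the 6 libraries compared, a replicate block, each library left out in turn, and wild-type replicate 3 left out of both stages, the last chosen after the data were seen.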

Additional observations from a re-analysis of the deposited data

How the results depend on the processing

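The falls of the 6 mRNAs from 1 to 6 hpf were called in both genotypes under every alternative run. At 1 hpf the count called lower in MZznf598 was 1, and was 0 with only the 6 libraries compared (zar1 at -0.86, edgeR adjusted p = 0.0191) and 0 to 1 when 1 library was left out. At 6 hpf it was 0, and was 0 to 1 when 1 library was left out and 3 without wild-type replicate 3 of both stages, a setting chosen after the data were seen. With the replicate number as a block over all 12 libraries, no call of the 6 changed. A block within each genotype can test only the stage changes and the interaction, and none of those calls changed. The genotype calls, that of zar1 included, could not be tested in it. In the block over all 12 libraries zar1 was -0.83 at 1 hpf (edgeR adjusted p = 0.00805), and org turned to -0.0045 there. The 6 hpf calls of smad3 and cpeb1 were lost in that block.

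Among the 6, only values that were not called changed sign. When 1 library was left out, the 1 hpf genotype difference ran from -0.18 to 0.093 for zar1l and from -0.064 to 0.15 for org. At 6 hpf it ran from -0.33 to 0.22 for buc, -0.97 to 0.17 for zar1l and -0.48 to 0.19 for gdf9, and from -0.88 to -0.20 for bmp15 without a change of sign. The interaction ran from -0.20 to 0.35 for buc, -0.88 to 0.26 for zar1l and -0.25 to 0.42 for gdf9. At 6 hpf npm2a, also not called there, ran from -0.11 to 0.34. Without wild-type replicate 3 of both stages, zar1l was 0.093 at 1 hpf, the interaction was -0.23 for buc and -0.16 for gdf9, and npm2a was -0.11 at 6 hpf. The causes were not tested. With 3 libraries a group and 4 to 23 counts for zar1l at 6 hpf, its genotype difference there was bounded only to between -1.24 and 0.86.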
